A study of Mus musculus with 93 samples.

Results

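Zp1, Zp2 and Zp3, Gdf9, Bmp15, Oosp1 and Fgf8 are genes of the oocyte that encode its extracellular coat and factors it secretes. These 7 genes were taken by symbol from the count tables of mouse oocytes and granulosa cells, out of 24047 gene symbols listed in at least 1 table. The 93 libraries came from wild type mice and from mice with a knockout of Esr2, the gene of estrogen receptor beta, with libraries prepared by Smart-seq2, which amplifies whole cDNAs from small amounts of RNA. Oocyte libraries numbered 12 wild type and 7 knockout at 4 weeks of age, 5 and 12 at 7 weeks, and 11 and 4 at 6 months. Granulosa libraries numbered 7 and 7, 5 and 5, and 12 and 6 at the same ages. The labels name the ovary as the tissue and give neither the strain, the knockout allele, the number of cells per library, the stage of the oocytes nor the animals, so a p-value here reflects variation among libraries that may be purely technical. One knockout oocyte column at 7 weeks carries a pair of joined sample numbers and was kept in its group unnumbered.

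The zona pellucida is the glycoprotein coat around the growing oocyte and the egg. In the mouse it is built from the proteins of Zp1, Zp2 and Zp3: ZP2 and ZP3 form its filaments, ZP1 cross-links them, and sperm bind to this coat at fertilization. GDF9 and BMP15 are growth factors of the TGF-beta family that the oocyte secretes and that act on the surrounding granulosa and cumulus cells through receptors of the BMP and TGF-beta families and SMAD proteins. FGF8 is a fibroblast growth factor which, together with BMP15, raises glycolysis in cumulus cells. Oosp1 encodes a small secreted oocyte protein and lies beside its relatives Oosp2 and Oosp3. The oocyte transcription factor FIGLA is known to act on zona genes through E-boxes, and NOBOX to act on Gdf9 and other oocyte genes.

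The genes lie on 5 chromosomes of the mouse genome (GRCm38, GENCODE M21), all as protein-coding genes, and no exon of another annotated gene overlaps theirs. Zp1 lies on chromosome 19 from 10914287 to 10920632, Zp2 on chromosome 7 from 120126772 to 120145291, and Zp3 on chromosome 5 from 135980099 to 135988624. Gdf9 lies on chromosome 11 from 53431023 to 53437904 and Bmp15 on chromosome X from 6314107 to 6320721. Oosp1 (11667460 to 11691150) and Fgf8 (45736798 to 45742915) lie on chromosome 19, as Zp1 does. Upstream sequences were at hand from RefSeq (GRCm38.p6) for 3 of the 7 genes. They are shown because they were the ones at hand, and were not chosen by result. Of these, Zp3 and Oosp1 were higher at 6 months than at both earlier ages in both genotypes, whereas Bmp15 passed the test at no age. Each runs 5′ to 3′ along the gene's strand over the 250 bases before the start that RefSeq gives, and capitals mark matches to the E-box CANNTG and to the NOBOX elements TAATTG and TAATTA, searched on both strands.
Zp3, chr5:135979855-135980104, plus strand: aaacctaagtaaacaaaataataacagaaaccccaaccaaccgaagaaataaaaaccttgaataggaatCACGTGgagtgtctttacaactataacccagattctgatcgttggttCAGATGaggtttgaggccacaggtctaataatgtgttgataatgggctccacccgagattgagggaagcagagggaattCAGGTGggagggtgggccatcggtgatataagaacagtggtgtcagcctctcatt
Oosp1, chr19:11691052-11691301, minus strand: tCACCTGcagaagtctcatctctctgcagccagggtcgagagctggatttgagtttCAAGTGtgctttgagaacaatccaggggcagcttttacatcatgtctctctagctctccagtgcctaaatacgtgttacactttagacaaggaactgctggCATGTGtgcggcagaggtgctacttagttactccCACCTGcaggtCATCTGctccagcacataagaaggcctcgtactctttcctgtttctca
Bmp15, chrX:6320725-6320974, minus strand: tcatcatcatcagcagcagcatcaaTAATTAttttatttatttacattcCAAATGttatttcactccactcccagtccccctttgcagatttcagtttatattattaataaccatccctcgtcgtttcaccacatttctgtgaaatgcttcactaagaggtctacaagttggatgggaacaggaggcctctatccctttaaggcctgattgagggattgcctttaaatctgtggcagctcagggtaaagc
The Zp3 stretch held 3 E-boxes, with first bases 181, 134 and 55 bases before the RefSeq start, and the Oosp1 stretch held 5, with first bases 249, 194, 93, 59 and 48 bases before it. The RefSeq and GENCODE starts differ: by the GENCODE gene the last 99 bases of the Oosp1 stretch, with 3 of its 5 E-boxes, and the last 6 bases of the Zp3 stretch lie inside the gene. The Bmp15 stretch held 1 E-box and 1 NOBOX element, the latter 225 bases before the start. Of 32536 distinct mouse promoter stretches of this length, 66.2% held an E-box, 11.3% a NOBOX element and 0.0645% a full estrogen response element (GGTCA and TGACC, 3 bases apart). None of the 3 stretches held the last of these. Over those promoter stretches the median number of E-boxes was 1. Whether the number of E-boxes bears on the age differences was not tested. A match is a description of letters, not a binding site.

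Total estimated counts ran from 1814958 to 7751953 in oocyte and from 702726 to 6469419 in granulosa libraries. Levels are given in CPM, the gene's counts scaled to the library total. Inha, Inhba and Cyp11a1, which granulosa cells express strongly, were picked from 14 granulosa markers as genes low in oocytes. They summed to a median of 3.48 CPM in oocyte libraries (0.203 to 343) and 6585 CPM in granulosa libraries (2192 to 12549). The wild type 7 week oocytes held most of this RNA, with a median of 62.4 CPM, against 2.63 at 4 weeks and 2.21 at 6 months. Knockout oocytes at 7 weeks had a median of 3.25 CPM. Of the 14 granulosa markers, Amh, Fshr and Foxl2 were listed in no oocyte table, while Serpine2 stood at a median of 851 CPM in oocytes and 3321 in granulosa cells. Nr5a2 stood at 16.2 and 141 CPM. Cyp19a1 went the other way, with a median of 65.0 CPM in oocytes and 4.86 in granulosa cells. In wild type oocyte libraries at 4 weeks markers of theca and stroma summed to 13.7 to 472 CPM (median 27.4, mean 86.9, SD 146). The immune markers reached 439 CPM in that group (median 35.1).

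Oocytes held all 7 genes at levels that spanned more than 3 orders of magnitude. Gdf9 had the third-highest mean CPM of all genes over the 51 oocyte libraries, at 16057 ± 5664 CPM (SD, n = 51). Oosp1 ranked 23 (3454 ± 1379), Bmp15 54 (1735 ± 469), Zp3 426 (391 ± 204), Zp2 773 (243 ± 63.3), Zp1 1106 (178 ± 63.2) and Fgf8 8666 (5.39 ± 2.85). Together the 7 took a median of 2.32% of an oocyte library's counts, between 0.844% and 3.64%. Per kilobase of exon the order of the means was Gdf9 (7906 CPM per kilobase), Oosp1 (3554), Bmp15 (567), Zp3 (296), Zp1 (90.1), Zp2 (89.3) and Fgf8 (4.00). This order held in 48 of 51 libraries for Gdf9 over Oosp1, in 44 for Bmp15 over Zp3 and in all 51 for Oosp1 over Bmp15, Zp3 over Zp1 and Zp2 over Fgf8. Zp1 exceeded Zp2 in only 27 of the 51, so this pair could not be ordered.

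**Figure D1:**
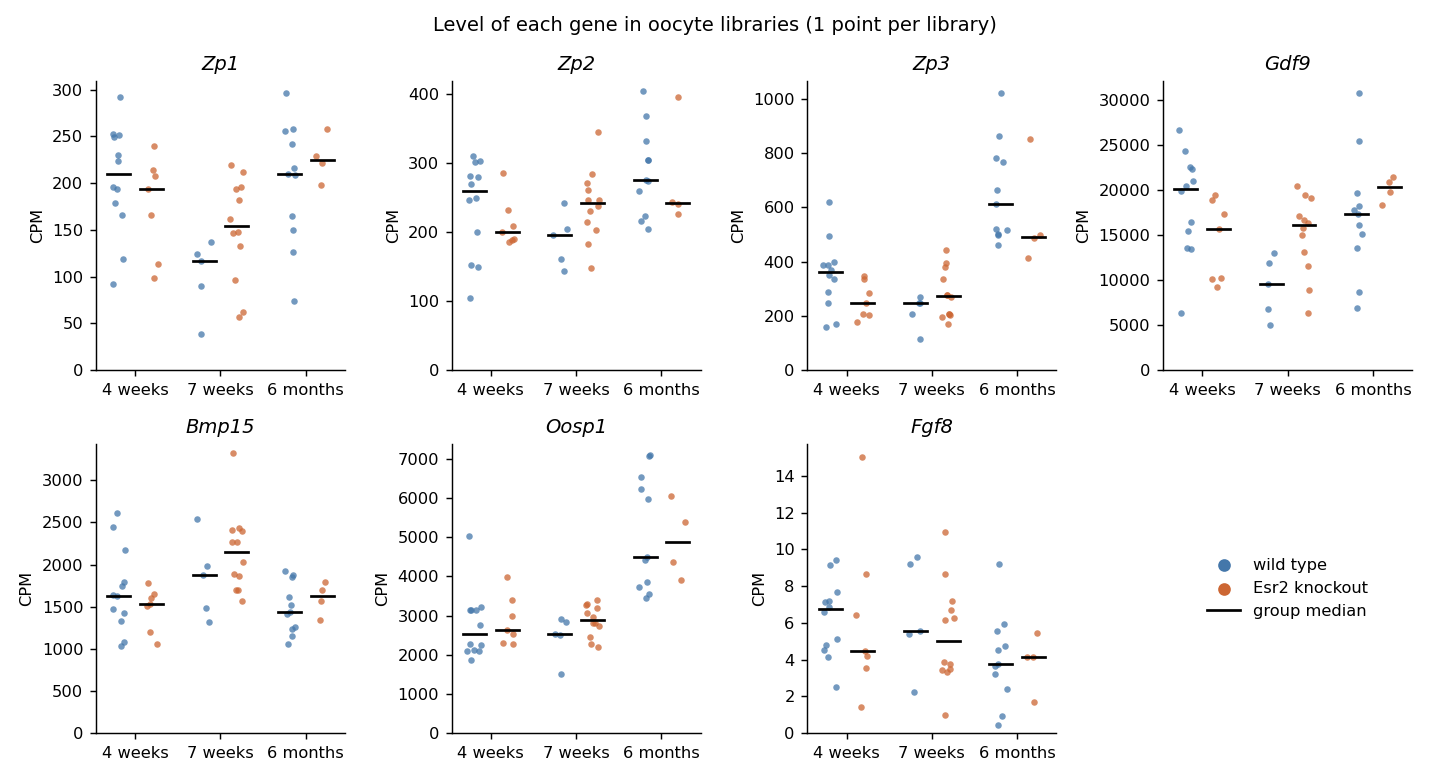
Level of each gene (CPM, linear axis from 0) in every oocyte library, by age, with wild type in blue, Esr2 knockout in orange and black lines at the group medians. Zp3 and Oosp1 stand highest at 6 months in both genotypes, wild type Zp1 and Gdf9 are lowest at 7 weeks, and wild type and knockout points overlap in every panel and at every age.

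The clearest change was with age. In wild type oocytes 5 of the 7 genes were higher at 6 months than at 7 weeks (adjusted p under 0.05 in edgeR's quasi-likelihood test), where 25.7% of all 13471 genes passed and 13.1% were higher. Against 4 weeks 2 of the 7, Zp3 and Oosp1, were higher at 6 months, with 15.4% of genes called and 8.31% higher. Zp1 and Gdf9 were lower at 7 weeks than at 4 weeks, where 0.824% of genes were called and 0.579% were lower. All 7 estimates were below 0 there, and 4 had an unadjusted p under 0.05 in edgeR, as 23% of genes did. Zp3 differed by log2 -0.89 ± 0.26 (SE, edgeR adjusted p = 0.0547) and was not called. The 36 other oocyte genes tested had a median of -0.36, beside -0.000268 over all genes, and 1 of them was called lower. In knockout oocytes Zp3 and Oosp1 were higher at 6 months than at 4 weeks (2.27% called, 1.52% higher) and at 7 weeks (5.78% called, 3.31% higher), and none of the 7 differed between 7 and 4 weeks (0.0223% called), where 1 had an unadjusted p under 0.05 and limma voom called none. The comparisons between ages share libraries, so they are not independent of each other. The ages were deposited as separate tables, and age cannot be told apart from anything else that differed between those tables.

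Among the zona genes only Zp3, which encodes a filament protein, passed the test between 6 months and 4 weeks. Its levels in wild type oocytes ran from 161 to 619 CPM at 4 weeks (median 361), were 248, 248, 271, 115 and 207 CPM in the 5 libraries at 7 weeks, and ran from 462 to 1021 at 6 months (median 614). In knockout oocytes they ran from 176 to 349 CPM at 4 weeks (median 246) and from 171 to 445 at 7 weeks (median 272), and were 853, 487, 498 and 414 at 6 months. Every wild type library at 6 months thus lay above every wild type library at 7 weeks, a separation that 3.58% of genes showed, and above the 4 week median in 11 of 11. The 4 knockout libraries at 6 months lay above all of those at 4 weeks, as 6.04% of genes did in one direction or the other, but not above all of those at 7 weeks.

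The Zp3 difference on the log2 scale was 0.93 ± 0.19 (SE, adjusted p = 0.000415) between 6 months and 4 weeks in wild type and 1.23 ± 0.28 (adjusted p = 0.0107) in knockout, both by edgeR. Against 7 weeks it was 1.82 ± 0.27 in wild type (edgeR adjusted p = 4.29e-06) and 1.13 ± 0.25 in knockout (adjusted p = 0.00384). Knockout sample 1 at 6 months held the 853 CPM. Without it the knockout differences were 0.99 (edgeR adjusted p = 0.0952) against 4 weeks and 0.90 (adjusted p = 0.0538) against 7 weeks, and neither passed.

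Zp1, which encodes the cross-linking protein, was lowest in wild type oocytes at 7 weeks. The levels there were 39.1, 124, 137, 90.04 and 117 CPM, against 92.3 to 292 at 4 weeks (median 209.6) and 74.5 to 296 at 6 months (median 209). All 5 libraries at 7 weeks lay below the 4 week median, while the ranges overlapped. The log2 difference from 4 weeks was -1.21 ± 0.32 (SE, edgeR adjusted p = 0.0477), and 6 months exceeded 7 weeks by 1.23 ± 0.32 (adjusted p = 0.00355).

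In knockout oocytes Zp1 ran from 98.2 to 240.0 CPM at 4 weeks (median 194) and from 57.1 to 219 at 7 weeks (median 155), and was 229, 258, 198 and 221 CPM at 6 months. None of the knockout age differences of Zp1 passed (log2 -0.26 ± 0.26, 0.45 ± 0.35 and 0.70 ± 0.31 for 7 weeks against 4 weeks, 6 months against 4 weeks and 6 months against 7 weeks). The 6 month libraries all lay above the median of each earlier age without separating from it.

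Zp2, which encodes the other filament protein, the one cleaved after fertilization, passed the test in 1 of the 6 age comparisons. Wild type levels ran from 105 to 310.1 CPM at 4 weeks (median 259) and from 204 to 403 at 6 months (median 275), and were 161, 204, 241, 143 and 195 CPM at 7 weeks. Knockout levels ran from 185 to 286 (median 199.5) at 4 weeks and from 148 to 344 (median 242) at 7 weeks, and were 395, 243, 241 and 226 CPM at 6 months. Only the wild type difference between 6 months and 7 weeks passed (log2 0.83 ± 0.21 SE, edgeR adjusted p = 0.00289), with 11 of 11 libraries above the 7 week median and overlapping ranges. The wild type difference between 7 and 4 weeks was -0.52 ± 0.21 (edgeR adjusted p = 0.126).

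Gdf9, the more abundant growth factor, was also lowest in wild type oocytes at 7 weeks. Its wild type levels at 7 weeks were 4989, 9532, 12981, 6781 and 11849.9 CPM, against 6333 to 26638.5 at 4 weeks (median 20135) and 6902 to 30773 at 6 months (median 17306). The 7 week libraries all lay below the 4 week median, and the lowest library of each other age lay within their range. Gdf9 was lower at 7 weeks than at 4 weeks by log2 -1.22 ± 0.31 (SE, edgeR adjusted p = 0.0424) and higher at 6 months than at 7 weeks by 1.16 ± 0.32 (adjusted p = 0.00500), while 6 months and 4 weeks differed by -0.05 ± 0.23 (adjusted p = 0.907). In knockout oocytes it ran from 9235 to 19435 CPM at 4 weeks (median 15645) and from 6329 to 20447 at 7 weeks (median 16068), and was 21378, 20838, 18369.6 and 19802 CPM at 6 months, with no age difference past the test.

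The fall of Zp1 and Gdf9 at 7 weeks rested on few libraries. Without wild type sample 1 at 7 weeks, which held the lowest level of both, the adjusted p was 0.227 for each; without sample 2 it was 0.0851 for Zp1 and 0.0929 for Gdf9, without sample 4 it was 0.0982 and 0.100, and without sample 3 the call on Zp1 was lost (0.0512). Both calls were also lost with scaling by library total (edgeR adjusted p = 0.0641 and 0.0605), without the filter on low counts (0.0571 and 0.0528), and with the summed share of Inha, Inhba and Cyp11a1 as a covariate (0.0973 for both, differences -1.19 and -1.18). With the share of all listed granulosa markers as the covariate, of which Serpine2 made up most, the differences were -0.76 for Zp1 (edgeR adjusted p = 0.178) and -0.65 for Gdf9 (adjusted p = 0.187). Serpine2 and Cyp19a1 stood at 851 and 65.0 CPM in oocytes, so this covariate cannot measure granulosa RNA. In wild type oocytes the listed markers summed to a median of 674 CPM at 7 weeks, 996 at 4 weeks and 1209 at 6 months. The 3-gene sum instead had its highest median in wild type oocytes at 7 weeks, and its part in the result was not tested further. Between 6 months and 7 weeks the 3-gene covariate left 5 calls, whereas the one from all listed markers gave 0.58 (edgeR adjusted p = 0.108) for Zp1 and 0.37 (adjusted p = 0.272) for Gdf9.

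Bmp15, the X-linked partner of Gdf9, showed no age difference past the test in either genotype. Wild type levels ran from 1028 to 2608 CPM at 4 weeks (median 1627) and from 1062 to 1926 at 6 months (median 1433), and were 1489.7, 1981, 2539, 1312 and 1877 at 7 weeks. Knockout levels ran from 1055 to 1779.9 (median 1528) at 4 weeks and from 1569 to 3321 (median 2149) at 7 weeks, and were 1794, 1698, 1344 and 1566 CPM at 6 months. The highest knockout levels were thus those at 7 weeks, where 12 of 12 libraries exceeded the 4 week median, with a log2 difference of 0.51 ± 0.15 (SE, edgeR adjusted p = 0.247). In wild type the 3 estimates between ages lay from -0.15 to -0.06.

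Fgf8, the cumulus glycolysis factor, was the least abundant of the 7. Wild type levels ran from 2.48 to 9.41 CPM at 4 weeks and from 0.435 to 9.22 at 6 months, and were 9.22, 2.24, 9.61, 5.41 and 5.57 CPM at 7 weeks. Knockout levels ran from 1.42 to 15.0 at 4 weeks and from 0.995 to 11.0 at 7 weeks, and were 4.12, 5.42, 1.68 and 4.13 CPM at 6 months. The groups overlapped throughout, and all 6 age differences were below 0 without passing (log2 -0.58 to -0.17, with SE between 0.34 and 0.52).

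Oosp1 was higher at 6 months than at both earlier ages in both genotypes. Wild type levels ran from 1870.3 to 5033 CPM at 4 weeks (median 2520.4) and from 3449 to 7115 at 6 months (median 4500.0), and were 1502, 2909, 2524, 2517 and 2839 at 7 weeks. Knockout levels ran from 2278 to 3992 (median 2624) at 4 weeks and from 2198 to 3397 (median 2891) at 7 weeks, and were 4374, 5397, 6063 and 3904 CPM at 6 months. In both genotypes every 6 month library lay above every 7 week library, a separation seen in 3.58% of genes in wild type and 4.67% in knockout.

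The Oosp1 difference between 6 months and 4 weeks was log2 0.95 ± 0.16 in wild type (SE, edgeR adjusted p = 2.90e-05) and 0.90 ± 0.24 in knockout (adjusted p = 0.0284). Against 7 weeks it was 1.31 ± 0.22 in wild type (edgeR adjusted p = 2.90e-05) and 0.93 ± 0.21 in knockout (adjusted p = 0.00504). With 1 knockout library at 6 months left out, the call against 4 weeks was lost without sample 1 (0.97, edgeR adjusted p = 0.0606), sample 2 (0.84, adjusted p = 0.105) or sample 3 (0.78, adjusted p = 0.150), and that against 7 weeks without sample 3 (0.83, adjusted p = 0.0505). The covariate from all listed granulosa markers also ended the call between 6 months and 4 weeks in knockout (0.76, edgeR adjusted p = 0.0740). Being mostly Serpine2, which oocytes hold too, it cannot show whether granulosa RNA had a part.

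**Figure D2:**
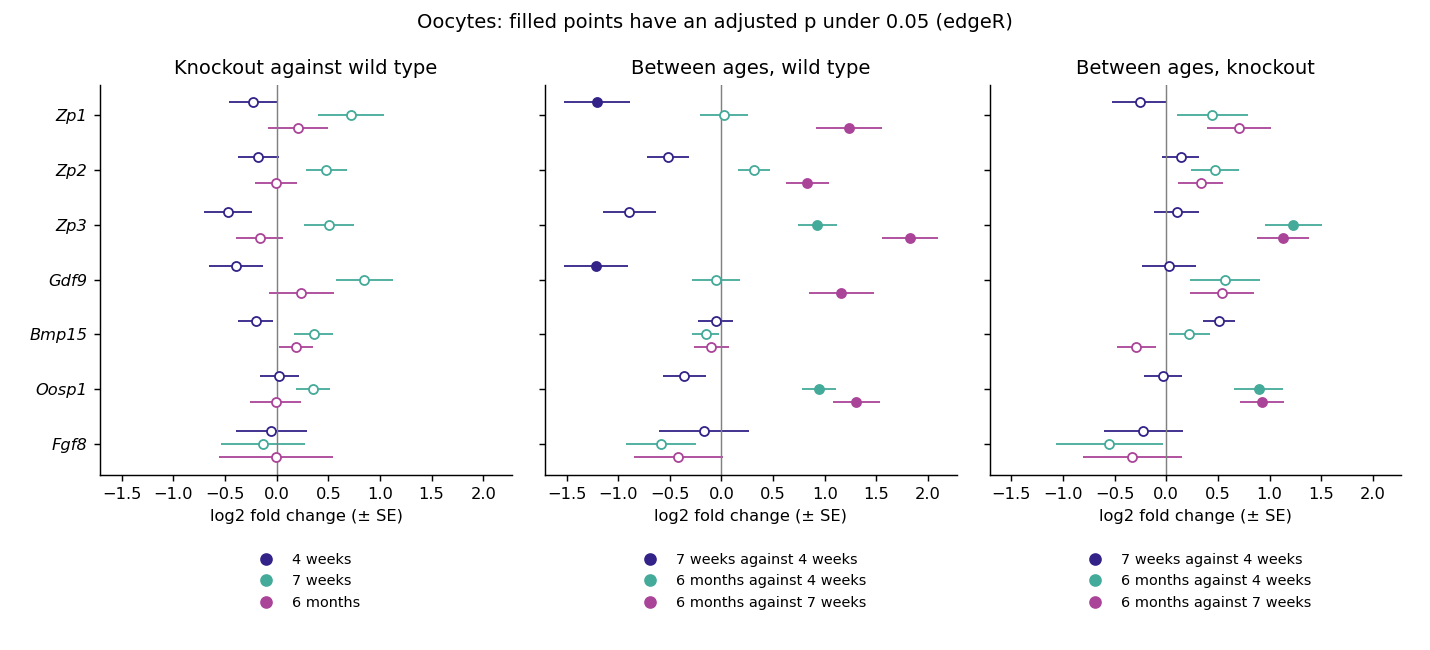
Log2 fold changes of the 7 genes in oocytes with their SE, for knockout against wild type (left) and between ages in wild type (middle) and knockout (right); filled points have an adjusted p under 0.05. No point is filled on the left, Zp3 and Oosp1 are filled for 6 months against both earlier ages in both genotypes, and wild type Zp1 and Gdf9 are filled below 0 for 7 weeks against 4 weeks.

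Loss of Esr2 gave no called change of the 7 genes in oocytes. In edgeR 0 of 7 passed at 4 weeks, 7 weeks and 6 months, where 0.00924%, 0.154% and 0.00818% of all genes passed, and DESeq2 and limma voom called none of the 7 either. Unadjusted p-values under 0.05 numbered 1 (Zp3) at 4 weeks, 4 at 7 weeks and 0 at 6 months, where 3.24%, 16.8% and 3.24% of all genes had one. At 7 weeks 6 of the 7 had higher estimates in knockout, with a median of log2 0.48 beside -0.01 over all genes tested. At 4 weeks 6 of the 7 estimates were below 0 (median -0.20, all genes -0.02), and at 6 months 3 were above it (median -0.01, all genes -0.05).

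The 7 week difference was widest for Gdf9, where wild type libraries ranged from 4989 to 12981 CPM and 9 of 12 knockout libraries lay above that range. Its log2 difference was 0.85 ± 0.28 (SE, edgeR adjusted p = 0.179), followed by Zp1 with 0.72 ± 0.32, Zp3 with 0.51 ± 0.24 and Zp2 with 0.48 ± 0.20. Bmp15 (0.36 ± 0.19) and Oosp1 (0.35 ± 0.16) also had estimates above 0, and Fgf8 (-0.13 ± 0.41) did not. Over the 4 same-numbered pairs, which the labels do not name as pairs, Gdf9 and Zp1 were higher in knockout in 4 of 4. With the sample number as a block Gdf9 differed by 0.49 ± 0.14 (edgeR adjusted p = 0.123) and Zp1 by 0.62 ± 0.18 (adjusted p = 0.139). These are the same 5 wild type libraries that were low in Zp1 and Gdf9 against 4 weeks, so both sets of values share them. Their summed Inha, Inhba and Cyp11a1 had a median of 62.4 CPM (2.13 to 343). In knockout oocytes at 7 weeks that median was 3.25 CPM (0.203 to 63.5), and its part in this difference was not tested further.

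At 4 weeks Zp3 differed by -0.47 ± 0.23 and Gdf9 by -0.39 ± 0.26, with 7 of 7 knockout libraries below the wild type median for both (edgeR adjusted p = 0.998). At 6 months no estimate passed 0.24 in size, and the SE ran from 0.17 for Bmp15 to 0.55 for Fgf8. Whether the knockout effect differed between ages was tested in the same fit: the difference between 7 and 4 weeks was 1.24 ± 0.41 for Gdf9 and 1.00 ± 0.33 for Zp3 (edgeR adjusted p = 0.338 for both). For that difference 5 of the 7 had an unadjusted p under 0.05, as 11.3% of all genes did, and 0 of 13471 genes passed. No member had one for 6 months against 4 weeks or against 7 weeks, and there too 0 genes passed in edgeR. Limma voom called 0 of the 7 in all 3.

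Related genes were read from 6 lists. These held oocyte transcription factors, zona processing and egg surface genes, other oocyte genes, receptors of the growth factors, SMAD proteins and granulosa targets of the growth factors. None of the 6 lists had a member called between knockout and wild type oocytes at any age. Of the 27 granulosa targets only 10, 16 and 12 were tested there at 4 weeks, 7 weeks and 6 months. With age, 4 of 11 tested genes of zona processing and the egg surface were higher in wild type at 6 months than at 4 weeks: Cd9, a tetraspanin needed for sperm fusion (log2 1.16 ± 0.19), Oosp2 (1.08 ± 0.18), Oosp3 (0.83 ± 0.15) and Fetub, an inhibitor of the zona protease ovastacin (0.72 ± 0.15), the last named after its value was seen. Furin, a proprotein convertase, was lower (-1.17 ± 0.22). Of all genes 8.31% were higher and 7.1% lower there, and 1.52% were higher in the same comparison in knockout. In knockout Oosp2 (1.17 ± 0.26), Oosp3 (0.86 ± 0.23), Fetub (0.84 ± 0.23) and Astl, which encodes ovastacin (1.48 ± 0.37), were higher and none was lower. Against 7 weeks 7 of 11 were higher and 1 lower in wild type, where 13.1% of all genes were higher and 12.6% lower, and 3 higher and 1 lower in knockout, where 3.31% were higher and 2.47% lower.

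Of the 36 tested genes that form a list of other oocyte genes, 19 were higher and none lower in wild type at 6 months than at 7 weeks, where 13.1% of all genes were higher, with a median log2 difference of 0.74 beside 0.07 over all genes. The 4 with the smallest p were Tle6 (1.53 ± 0.25), a subunit of the subcortical maternal complex, Gtsf1 (1.29 ± 0.28), Pabpc1l (1.52 ± 0.35), an egg poly(A)-binding protein, and Oas1c (0.87 ± 0.20). Against 4 weeks 8 were higher and 1 lower, where 8.31% of all genes were higher and 7.1% lower. In knockout 1 was higher against 4 weeks and 3 against 7 weeks, where 1.52% and 3.31% of all genes were higher. Of 8 oocyte transcription factors tested, 5 were called between 6 months and 7 weeks in wild type, where 25.7% of all genes were. Tbpl2 (1.27 ± 0.30), Nobox (0.84 ± 0.21) and Gtf2a1l (0.56 ± 0.16) were higher, and Foxo3 (-0.87 ± 0.24) and Taf4b (-1.12 ± 0.32, named after its value was seen) lower.

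Of 11 receptors of the growth factors tested in oocytes, 2 were lower at 6 months in wild type. The shares of all genes that were lower were 12.6% against 7 weeks and 7.1% against 4 weeks, so these counts are read against them. Acvr2b (-2.29 ± 0.41 against 7 weeks, -1.25 ± 0.35 against 4 weeks) and Bmpr2, the BMP15 type II receptor (-1.13 ± 0.23 and -0.60 ± 0.19) were the receptors called. Smad3 (-0.93 ± 0.19 and -0.61 ± 0.15) and Smad4 (-0.99 ± 0.24 and -0.96 ± 0.20) were lower against both ages and Smad1 (-0.69 ± 0.19) against 7 weeks, of 6 tested. In knockout oocytes Smad3 alone of these was lower, against 7 weeks (-0.93 ± 0.22).

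In granulosa libraries the members were present at a small fraction of their oocyte level. Gdf9, which was above the low-count filter in granulosa cells alone, was lower than in oocytes of the same age and genotype in all 6 comparisons, by log2 -6.91 to -11.74, in edgeR. Of all genes 81.1% and 79.6% were called there at 4 weeks in wild type and knockout, 74.5% and 79.2% at 7 weeks and 83.6% and 75% at 6 months. Each granulosa library was set against the mean oocyte CPM of its age and genotype. Gdf9 lay between 0.0154% and 0.290% of that mean, with a median of 0.0578%, in 38 of the 42 libraries, and between 1.37% and 1.96% in the other 4. No member exceeded 0.526% in those 38. In bulk libraries fewer cells of a type and less RNA per cell cannot be told apart, and the source of the RNA of these genes in granulosa libraries was not tested. Zp1, Zp2 and Zp3 were not listed in the 6 month granulosa table, and Fgf8 in none of the granulosa tables. A count of 0 in a granulosa library allows up to 3 counts, or 0.464 to 4.27 CPM, for counting error only.

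**Figure D3:**
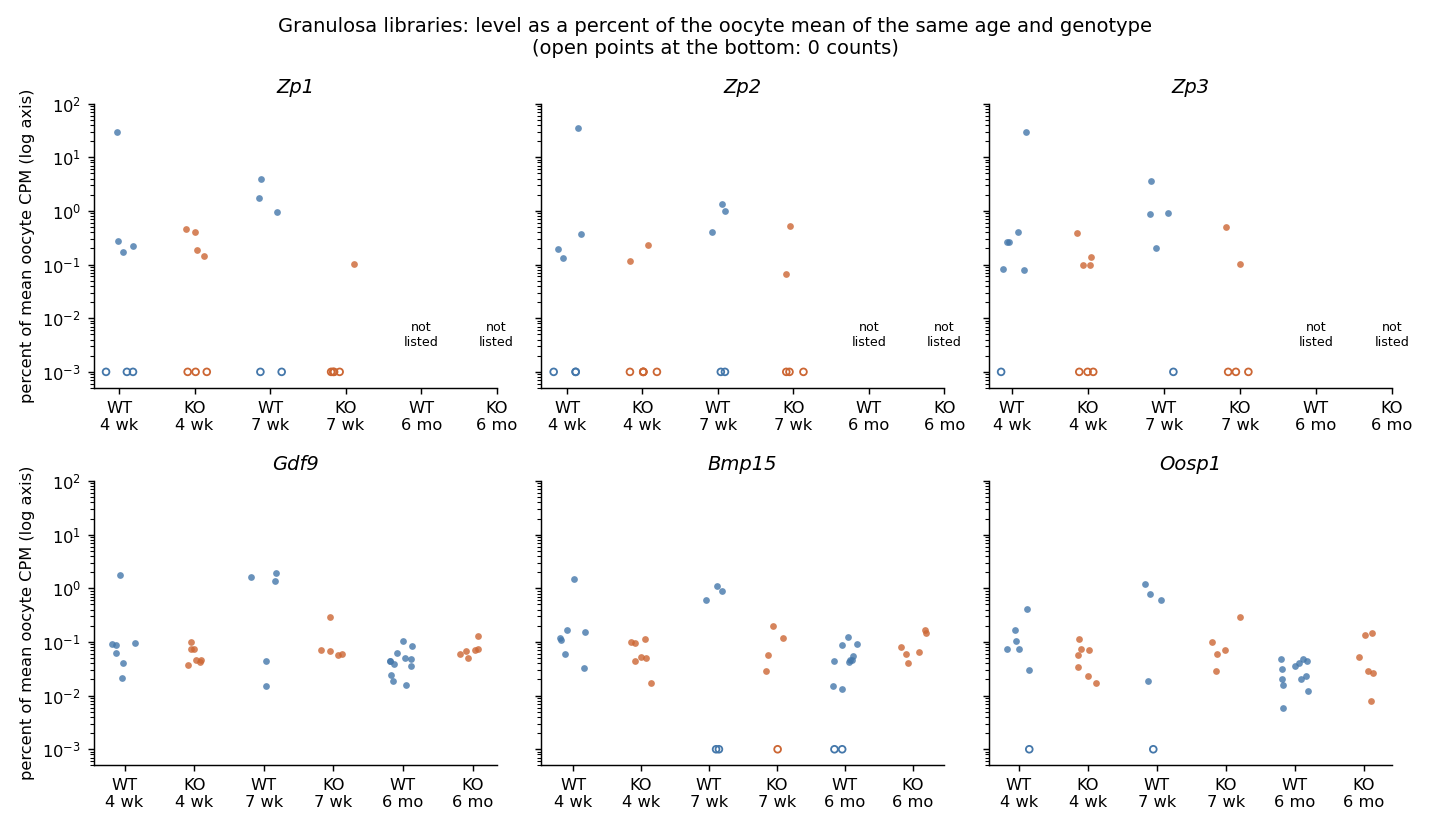
Level of 6 genes in each granulosa library as a percent of the mean oocyte CPM of the same age and genotype (log axis), with wild type in blue, knockout in orange and 0 counts as open points at the bottom. Most points lie between 0.01% and 0.5%; wild type libraries at 7 weeks reach 1% to 4%, and 1 wild type library at 4 weeks stands near 30% for the zona genes.

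The 4 libraries that stood apart were all wild type, sample 6 at 4 weeks and samples 3, 4 and 5 at 7 weeks. At 7 weeks Gdf9 was at 127, 181 and 151 CPM in samples 3, 4 and 5 and at 1.42 and 4.07 CPM in samples 1 and 2. Bmp15 followed with 11.1, 20.4 and 16.3 CPM and Oosp1 with 15.1, 19.1 and 29.5 CPM, against 0 to 0.452 CPM for both in samples 1 and 2. The 3 libraries thus carried Gdf9 at 1.37%, 1.96% and 1.63% of its oocyte mean. Over 30 other oocyte genes their median was 0.696%, 1.02% and 1.10%, and samples 1 and 2, of which sample 1 held the fewest counts of all libraries, had 0% and 0.0223%.

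Sample 6 at 4 weeks differed from these in its composition. It held Zp1 at 60.0, Zp2 at 81.8 and Zp3 at 104 CPM, while the other 6 wild type libraries at 4 weeks lay between 0 and 1.41 CPM for each zona gene. These levels were 29.5%, 34.5% and 29.5% of the oocyte means. In the same library Gdf9 stood at 335 CPM, which was 1.81% of its oocyte mean, Bmp15 at 24.9 CPM (1.47%) and Oosp1 at 11.6 CPM (0.418%). The zona genes thus stood more than 10 times as high, relative to oocytes, as the growth factors in that library.

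The share of the 3 zona genes in the summed counts of Zp1, Zp2, Zp3 and Gdf9 shows the same difference without reference to an oocyte mean. It was 42.3% in sample 6 (552 of 1306 counts, 95% exact binomial interval 39.6 to 45.0, counting error only). Over the 51 oocyte libraries it ran from 2.73% to 16.4% with a median of 4.70%. In the 3 wild type libraries at 7 weeks it was 4.73% (3.08 to 6.90), 4.15% (2.71 to 6.07) and 6.04% (4.51 to 7.88), within the oocyte range. In the remaining granulosa libraries with these genes listed the intervals were wide, as they rested on 1 to 84 counts.

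**Figure D4:**
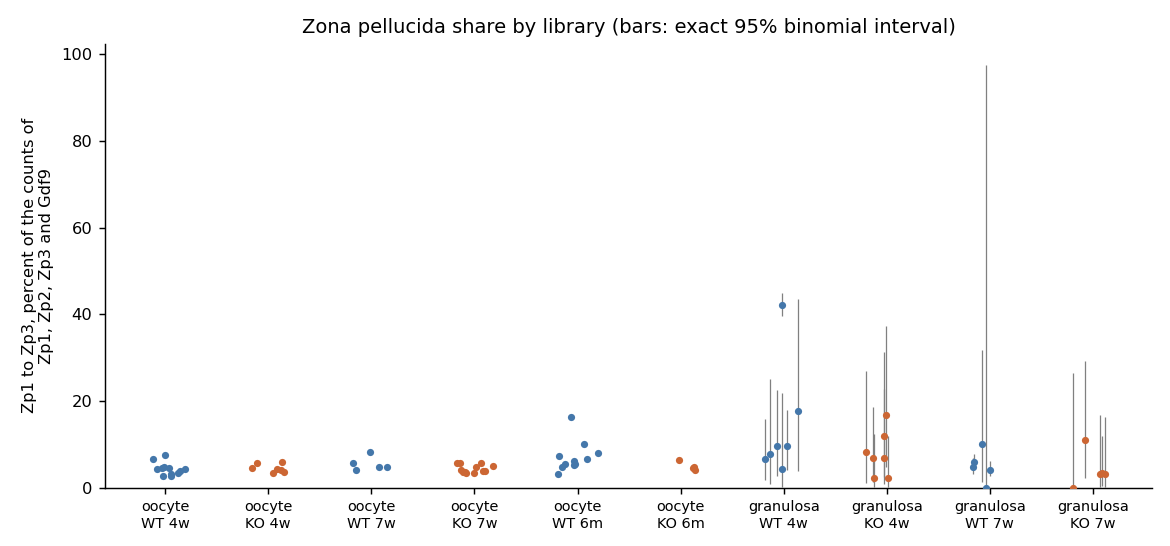
Zona genes as a percent of the counts of Zp1, Zp2, Zp3 and Gdf9 in each library (linear axis from 0), for oocyte and granulosa groups; bars on granulosa points are exact 95% binomial intervals. The wild type 4 week granulosa library at 42.3% stands above all 51 oocyte libraries, which reach 16.4%.

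Of 29 other oocyte genes in sample 6 the median was 1.30% of the oocyte mean, and some genes stood well above it. Padi6 and Nlrp5, of the oocyte's cytoplasmic lattices and subcortical complex, stood at 8.44% and 6.12%, Nlrp14 at 3.91% and Zar1 at 3.15%. In the 3 wild type libraries at 7 weeks these 4 genes lay between 0.260% and 1.33%. The transcription factor Nobox stood at 12.9%, against 0.472% to 1.26% in the 3 wild type libraries at 7 weeks. Pabpc1l (23.97%) and Oas1c (7.68%) were high too, against at most 5.62% and 1.41% in those 3. Tle6 stood at 39.1%, but it also stood at 36.3%, 39.2% and 23.9% in the 3 libraries and at a median of 9.22% in the other 38. These genes were named after their values were seen.

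**Figure D5:**
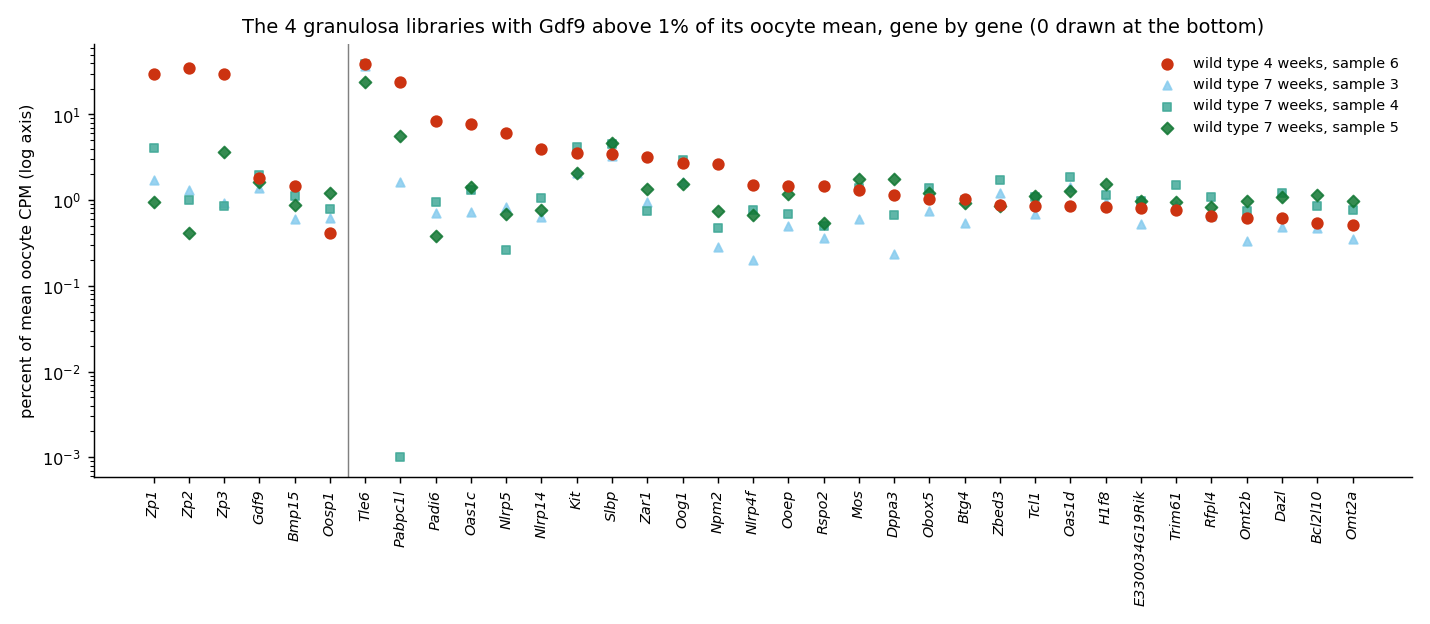
Percent of the mean oocyte CPM (log axis) for 6 members and the other oocyte genes in the 4 granulosa libraries with Gdf9 above 1% of its oocyte mean; genes right of the line are ordered by their value in wild type sample 6 at 4 weeks, and 0 is drawn at the bottom. Red points for Zp1, Zp2 and Zp3 lie near 30%, while over the 4 libraries Gdf9 lies between 1.37% and 1.96% and Bmp15 between 0.601% and 1.47%.

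Between knockout and wild type granulosa cells only Gdf9 passed the filter on low counts, of 6 members listed at 4 and 7 weeks and 3 at 6 months. At 4 weeks wild type libraries ran from 3.90 to 335 CPM (median 16.4) and knockout from 5.38 to 14.6 (median 6.76), and at 7 weeks the wild type values above stood beside 43.4, 10.5, 10.0, 8.78 and 8.53 CPM in knockout. The ranges overlapped at both ages. The log2 differences were -2.85 ± 0.92 (SE, edgeR adjusted p = 0.162) and -2.76 ± 0.99 (adjusted p = 0.190), with unadjusted p of 0.00754 and 0.0169. Neither was called (2.36% and 0.892% of genes were), nor by DESeq2 or limma voom. Without wild type sample 6 at 4 weeks, the library with 335 CPM, the first difference was -0.58 (adjusted p = 0.643).

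At 6 months Gdf9 was higher in knockout granulosa libraries. Wild type libraries ran from 2.77 to 18.2 CPM (median 7.61) and knockout from 10.2 to 25.6 (median 14.1), with 6 of 6 knockout libraries above the wild type median and overlapping ranges. The log2 difference was 1.06 ± 0.32 (SE, edgeR adjusted p = 0.0336), where 12.6% of genes were called and 6.59% were higher. As a percent of the oocyte mean of the same genotype the medians were 0.0442% in wild type and 0.0702% in knockout.

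Some other oocyte transcripts were also higher in knockout granulosa libraries at 6 months. Of 12 tested genes on the list of other oocyte genes 4 were higher, H1f8 (1.59 ± 0.29), Rfpl4 (2.11 ± 0.49), Zbed3 (0.67 ± 0.17) and Tcl1 (1.44 ± 0.40), and none lower, where 6.59% of all genes were higher. The median over the 12 was log2 1.07, beside -0.02 over all genes. Over the 28 of 38 such genes listed, summed levels ran from 232 to 354 CPM in knockout and from 155 to 265 in wild type. Markers of theca and stroma (10 of 12 listed, none at 0 throughout) summed to 1236 to 2192 CPM in knockout and 573 to 1631 in wild type, and their part in the result was not tested. Counted over the 6 same-numbered pairs, which the labels do not name as pairs, the Gdf9 estimate was 1.10 with the sample number as a block (edgeR adjusted p = 0.0823). Without the block it was 1.00 (adjusted p = 0.0837), and neither was called. The Gdf9 call was also lost with scaling by library total (0.92, edgeR adjusted p = 0.0535) and without knockout sample 1 (1.06, adjusted p = 0.0590), sample 2 (1.07, adjusted p = 0.0598) or sample 5, which held the 25.6 CPM (0.84, adjusted p = 0.112).

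Of the listed receptors of the growth factors, 10 were tested in granulosa cells at 4 weeks and 11 each at 7 weeks and 6 months. Tgfbr3, which encodes the co-receptor betaglycan, was called between genotypes at each of the 3 ages. It was higher in knockout granulosa cells by 1.31 ± 0.29 at 4 weeks, 2.22 ± 0.44 at 7 weeks and 1.10 ± 0.33 at 6 months (edgeR adjusted p = 0.0124, 0.0335 and 0.0318). Granulosa targets of the growth factors were called in 5 of 25 at 4 weeks, 2 of 26 at 7 weeks and 4 of 24 at 6 months, where 2.36%, 0.892% and 12.6% of all genes were. At 4 weeks Lhcgr (-4.24 ± 0.43), the LH receptor that oocyte factors hold down in cumulus cells, Fdps (-0.99 ± 0.20) and Slc38a3 (-2.26 ± 0.46), an amino acid transporter, were lower, and Kitl (1.57 ± 0.31), the ligand of the oocyte's KIT receptor, and Id3 (1.14 ± 0.25, named after its value was seen) higher. At 7 weeks Lhcgr (-3.51 ± 0.54) and Fdps (-1.05 ± 0.22) were lower. At 6 months Fst (-1.41 ± 0.25), which encodes the activin-binding follistatin, and Ptx3 (-1.40 ± 0.38), of the cumulus matrix, were lower and Inhba (0.87 ± 0.23) and Dusp6 (0.78 ± 0.23) higher. Of the genes of zona processing and the egg surface 7 were tested at each age. In knockout granulosa cells 1 was lower at 4 weeks, 2 were lower at 7 weeks, and 1 was lower and 1 higher at 6 months. Of all genes 1.39%, 0.383% and 6.04% were lower at these ages, and 6.59% were higher at 6 months. Fetub, of this list, was lower at every age (-2.12 ± 0.25, -1.47 ± 0.29 and -0.69 ± 0.19), and the others called are not named here. The receptor Tgfbr1 (-1.65 ± 0.26), Smad3 (-0.83 ± 0.20) and Smad4 (-0.89 ± 0.28) were also lower at 6 months. These were 1 of 11 receptors tested, among which 1 was higher, and 2 of 7 SMAD genes, where 6.04% of all genes were lower. Markers of other cell types also differed between these libraries. At 7 weeks theca and stroma markers (10 of 12 listed) summed to 829.9 to 1143 CPM in wild type and 493.1 to 726 in knockout, and those of surface epithelium (8 of 8) to 580.0 to 1854 and 147 to 465, with no overlap in either. At 4 weeks theca and stroma markers (11 of 12) summed to 437 to 1628 CPM in wild type and 396 to 825 in knockout, and erythroid markers (5 of 5) to 26.1 to 889.7 and 9.23 to 40.9. The part of these cells in the results was not tested.

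Zp1 and Gdf9 were the most alike of the members across oocyte libraries. Likeness was measured over the 51 oocyte libraries as Pearson's r of log2(CPM + 1) after the mean of each group was removed, among 7844 genes with a mean of at least 5 CPM; the libraries share their depth and composition, so r is a description. Gdf9 was closest to Saraf (r = 0.928), Lrrc17 (0.917) and Edem2 (0.907), and Zp1 to Plk1 (0.885), Dclre1a (0.884) and Edem2 (0.883). Oosp1 was closest to Magoh (0.915), its neighbour Oosp3 (0.889) and Sfr1 (0.820), Zp3 to Psmb2 (0.757), Gja4 (0.717) and Miox (0.705), and Zp2 to Gcnt4 (0.736), Paics (0.683) and Tuba1c (0.675). Bmp15 was closest to Pcyox1 (0.746), Samd8 (0.707) and Lnx2 (0.705), and Fgf8 to Tep1 (0.535), Reg3g (0.529) and Xpa (0.515).

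Between members the highest r was that of Zp1 with Gdf9 (0.836). The zona genes were less alike, with 0.416 for Zp2 and Zp3, 0.368 for Zp1 and Zp2 and 0.313 for Zp1 and Zp3, and the growth factors Gdf9 and Bmp15 had -0.157. Gdf9 and Zp1 also varied with the log2 total count of the library (r = 0.608 and 0.494), as did Oosp1 (0.420), whereas Bmp15 (-0.058) and Fgf8 (-0.007) did not.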

How the data were processed

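The deposited tables hold estimated counts per gene, that is expected counts that need not be whole, for 93 mouse libraries. Per the submitters' processing notes STAR, Partek and DESeq2 were used with the mm10 build; versions, the annotation, any strand setting and the handling of reads shared by related genes such as Oosp1, Oosp2 and Oosp3 are not given in the sources used here. The deposited normalised tables hold the signal obtained when the authors divided counts by DESeq2 size factors, and they were not used in tests. Genes with few counts had been left out of the deposited count tables, so a gene not listed is not a gene at 0.

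Counts were rounded and tested with edgeR 4.0.16 (quasi-likelihood, TMM, filterByExpr; R 4.3.3), adjusted by Benjamini-Hochberg over all genes tested. Each knockout comparison was fitted on its own cell type and age, the age comparisons and knockout effect differences on all oocyte libraries, and granulosa against oocyte on all 12 groups. The script was tested on simulated data. Alternatives were limma 3.58.1 voom, DESeq2 1.42.0, other scalings, no filter, marker covariates, replicate blocks and leaving out libraries. The labels name no pairs, so the sample number entered only as a block in alternative fits. Deviations of same-numbered oocyte libraries from their group means at 7 weeks had r = 0.507, 0.118, 0.168 and 0.230 over 4 pairs. Those of granulosa libraries at 7 weeks had r = 0.226, 0.145, 0.220, 0.417 and -0.194. With the block 38 genes and 0 members were called in 7 week oocytes, against 1 gene and 0 members in the same libraries without it.

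Named were all 7 members, up to 4 called genes per list with the smallest p, and the 3 genes most like each member. The members and lists were chosen with earlier results of these data known. Python 3.11.15, pandas 2.3.3, SciPy 1.17.1 and matplotlib 3.10.9 were used for levels, exact intervals and figures.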

Additional observations from a re-analysis of the deposited data

Results flagged for a closer look

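Each gene was examined in each group of 4 to 10 libraries, 48 gene and group combinations in all. Of these 16 held a library far from the rest by Dixon's criterion at the 95% level. Chance meets it in about 1 of 20 where values are normally distributed, which was not tested for CPM. That rate does not hold where most libraries are at 0 or hold a few counts. Wild type granulosa sample 6 at 4 weeks stood apart for all 6 listed members, with Zp1 at 60.0, Zp2 at 81.8, Zp3 at 104, Gdf9 at 335, Bmp15 at 24.9 and Oosp1 at 11.6 CPM. Knockout granulosa sample 1 at 7 weeks stood apart for Gdf9 (43.4 CPM), Oosp1 (8.40 CPM, 6 counts) and Zp3 (1.40 CPM, 1 count). In the same group sample 3 stood apart for Zp2 (1.26 CPM, 3 counts) and sample 4 for Zp1 (0.157 CPM, 1 count beside 4 libraries at 0). The other granulosa libraries were wild type sample 5 at 7 weeks for Zp3 (7.95 CPM), knockout sample 2 at 4 weeks for Zp3 (0.989 CPM, 3 counts) and knockout sample 5 at 6 months for Gdf9 (25.6 CPM). Among oocytes, knockout sample 1 at 6 months was high for Zp2 (395 CPM) and wild type sample 1 at 7 weeks was low for Oosp1 (1502 CPM).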

How the results depend on the processing

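Of the counts of members called, 182 alternative values equalled the reported one or lay within 1.5 times of it, and 21 did not. Counts of 0 that stayed at 0 are among the 182, and they do not bear on how firm a call is. The single Gdf9 call in granulosa cells at 6 months fell to 0 with library totals, with the replicate block and with the same paired libraries without it. In wild type oocytes the 2 calls between 7 and 4 weeks fell to 0 with library totals, without the filter, with the granulosa marker covariate and with the 3-gene covariate. The marker covariate, which is mostly Serpine2 and does not measure granulosa RNA, left 3 calls between 6 months and 7 weeks in wild type. It left 1 between 6 months and 4 weeks in knockout. With 1 library left out the counts ran from 0 to 1 (granulosa, 6 months), 0 to 2 (wild type, 7 against 4 weeks), 0 to 2 (knockout, 6 months against 4 weeks) and 1 to 2 (knockout, 6 months against 7 weeks). The cause of these changes was not tested.

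Of the estimates for single members, 958 alternative values kept direction and call, 30 lost the call and 55 changed sign; those that changed sign had not passed the test. In knockout against wild type oocytes, the same paired libraries at 4 weeks gave Oosp1 -0.035 and Fgf8 0.10, and the marker covariate at 7 weeks gave Fgf8 0.12. At 6 months Zp2, Oosp1 and Fgf8 were 0.00567, 0.000649 and 0.00535 without the filter, voom gave Oosp1 0.035 and Fgf8 0.25, the replicate block gave Zp2 0.050 and Oosp1 0.044, the same paired libraries gave Zp2 0.0196, the marker covariate gave Fgf8 0.0195 and the 3-gene covariate Zp2 0.00519. Library totals gave Bmp15 0.12 and Fgf8 0.023 for 7 against 4 weeks in wild type, Zp1 -0.026 for 6 months against 4 weeks in wild type, Oosp1 0.000358 for 7 against 4 weeks in knockout and Fgf8 -0.055 for the difference of knockout effects between 6 months and 4 weeks. Voom gave Zp1 -0.017 (wild type, 6 months against 4 weeks) and Fgf8 0.14 (knockout effects, 7 against 4 weeks). The marker covariate gave Zp1 -0.19 (wild type, 6 months against 4 weeks), Fgf8 0.018 (wild type, 6 months against 7 weeks), Zp1 -0.052 (knockout, 6 months against 4 weeks), Gdf9 -0.089 and Fgf8 0.064 (knockout, 6 months against 7 weeks) and Fgf8 0.23 (knockout effects, 7 against 4 weeks). The 3-gene covariate gave Bmp15 0.014 and Fgf8 0.029 (wild type, 7 against 4 weeks) and Fgf8 -0.047 (knockout effects, 6 months against 4 weeks).

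With 1 library left out, knockout against wild type ranged for Oosp1 from -0.045 to 0.084 at 4 weeks and from -0.12 to 0.089 at 6 months, for Zp2 from -0.20 to 0.079 at 6 months, and for Fgf8 from -0.37 to 0.12 at 4 weeks, -0.36 to 0.059 at 7 weeks and -0.26 to 0.24 at 6 months. Between ages in wild type Bmp15 ranged from -0.21 to 0.041 (6 months against 7 weeks) and from -0.19 to 0.012 (7 against 4 weeks), and Fgf8 from -0.36 to 0.031 (7 against 4 weeks). For differences of knockout effects Fgf8 ranged from -0.22 to 0.27 (6 months against 4 weeks), -0.12 to 0.38 (6 months against 7 weeks) and -0.27 to 0.14 (7 against 4 weeks), Oosp1 from -0.17 to 0.047 and Zp2 from -0.039 to 0.24 (both 6 months against 4 weeks).

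Library totals moved the median of all genes by over 0.1 on the log2 scale in several comparisons, to 0.18 for wild type 7 against 4 weeks, -0.16 for wild type and -0.18 for knockout 6 months against 7 weeks, and -0.15 in granulosa cells at 6 months. DESeq2 called 248 genes between genotypes in 7 week oocytes, against 18 in edgeR and 1 with voom, and 0 members in each. Outside the 7 week oocytes, the r between same-numbered libraries took both signs in every comparison. There the replicate block called 1 gene at 4 weeks and 1 at 6 months in oocytes, and in granulosa cells 243 at 4 weeks, 126 at 7 weeks and 645 at 6 months, where the same libraries without it gave 1062 and all libraries 1579. Depth limits the zona genes in granulosa libraries, which mostly rest on a few counts.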
